A study of Mus musculus with 12 samples.

Results

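Alveolar epithelial type 2 cells (AEC2) from mice carrying the C185G mutant of surfactant protein C were compared with AEC2 from wild-type (WT) mice by RNA sequencing, with 4 libraries on each side, 8 of the 12 in the series. Libraries were taken by the genotype in their labels, SP-C C185G or SP-C WT. The other 4 libraries have the genotype SP-C C185Gneo, described by the series as a hypomorphic control, and their values are given beside the comparison. The titles do not follow the genotypes: the C185Gneo libraries carry the name C185G in their titles, and the C185G libraries carry the name C8C. All mice were female, of the Bl6 strain and of age P56. All of them, WT and C185Gneo included, received 200 mg/kg tamoxifen intraperitoneally over 2 days and their cells were isolated on day 7, so tamoxifen exposure is common to every group. No source used here names the recombinase acted on by tamoxifen or the promoter that drives it. Lungs were digested with dispase, adherence to plastic took out mesenchymal cells and magnetic beads took out CD45+ cells, and no positive sort for AEC2 is described. Whether each library is a separate animal is not stated, and p-values therefore cover no more than the spread among the libraries, which may be technical.

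AEC2 make, store and secrete pulmonary surfactant, a film of phospholipid and surfactant proteins that lowers surface tension in the alveolus, and they also serve as progenitors of the flat type 1 cells. Surfactant protein C, encoded by Sftpc, is made as a larger membrane proprotein that passes through the endoplasmic reticulum (ER) and Golgi and is cut to its mature form in late compartments. The BRICHOS domain of the proprotein lies in the ER lumen and assists its folding. Proteins that fail to fold in the ER are sensed by the unfolded protein response, whose sensors are IRE1 (Ern1), PERK (Eif2ak3) and ATF6, and are moved to the cytosol, tagged with ubiquitin and degraded by the proteasome.

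The mutated residue is shown here in the reference, because the comparison rests on it. In the GRCm38 genome with GENCODE annotation, the codon named by C185G, of the 193 codons of Sftpc, is TGT, a cysteine codon in exon 5 of 6, at chr14:70521353-70521355 on the minus strand. The reference sequence around it, at chr14:70521341-70521367 and read 5′ to 3′ on the coding strand, has the codon in capitals.
Sftpc mutated codon: gtgagcaccctgTGTggagagctacca
The counts are per gene, so transcripts with and without the mutation were not separated.

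Each library held 15659512 to 23444287 counts over 16080 genes. Levels are given as normalized CPM, counts multiplied by the authors' scale factor for that library and divided by 1 total for all, the mean scaled total. The scaled totals themselves differed by up to 1.08-fold and were lower in C185G than in WT. Sftpc was 7454, 7674, 7530.4 and 7211 normalized CPM in the WT libraries, 1079, 793, 936 and 772 in C185Gneo and 2847, 2471, 2954 and 3059 in C185G. The groups did not overlap, and the libraries labelled C185Gneo were the lowest. Sftpc in C185G had a log2 fold change of -1.40 against WT (standard error 0.10, limma adjusted p = 6.9e-08) and of 1.67 against C185Gneo (adjusted p = 1.1e-08). The AEC2 markers were present in every library: the 23 surfactant and lamellar body genes summed to 56490 to 68300 normalized CPM in WT and to 21760 to 26850 in C185G. Lower levels in bulk RNA can come from fewer cells of a type or from less RNA per cell, which cannot be told apart here.

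A gene was called where limma's moderated test gave an adjusted p under 0.05. Between C185G and WT, 8852 of 16080 genes were called, 55.0%: 4388 were higher in C185G, 27.3%, and 4464 were lower, 27.8%. With each library scaled by its total alone, the split was 5357 higher and 3593 lower. The groups did not overlap for 7832 genes, 48.7%. Differences were mostly small, since 4666 of the called genes, 52.7%, differed by less than 1.5-fold, while 812 were more than 2-fold higher and 1046 more than 2-fold lower. Against C185Gneo, 9298 genes, 57.8%, were called, 4691 higher (29.2%) and 4607 lower (28.7%), with groups that did not overlap for 8026 (49.9%). Both comparisons use the same 4 C185G libraries. With backgrounds this high, a gene list is described by the share of its members that moved one way and by its median log2 fold change, beside 27.3%, 27.8% and the median of all genes, -0.0004.

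The direction of change varied with expression level. Of the 66 genes with a mean over 1000 normalized CPM, 35 were lower and 18 higher in C185G, with a median log2 fold change of -0.23. In the 3 bins below that level, down to 5 normalized CPM, between 25.7% and 34.3% of genes were called in each direction. The number of genes that together held 50% of all counts was 1009 to 1069 in WT and 1156 to 1217 in C185G, and the groups did not overlap (exact permutation test, two-sided p = 0.0286, the smallest that 4 against 4 can give). By class of transcript, 18 of 29 small nucleolar RNA genes were lower and 2 higher, and of 340 antisense genes 101 were lower and 34 higher, against nearly equal numbers of protein-coding genes (3988 lower and 4063 higher of 13970). No source used here says whether the counting used strand, so reads of an antisense gene and its partner cannot be told apart.

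**Figure D1:**
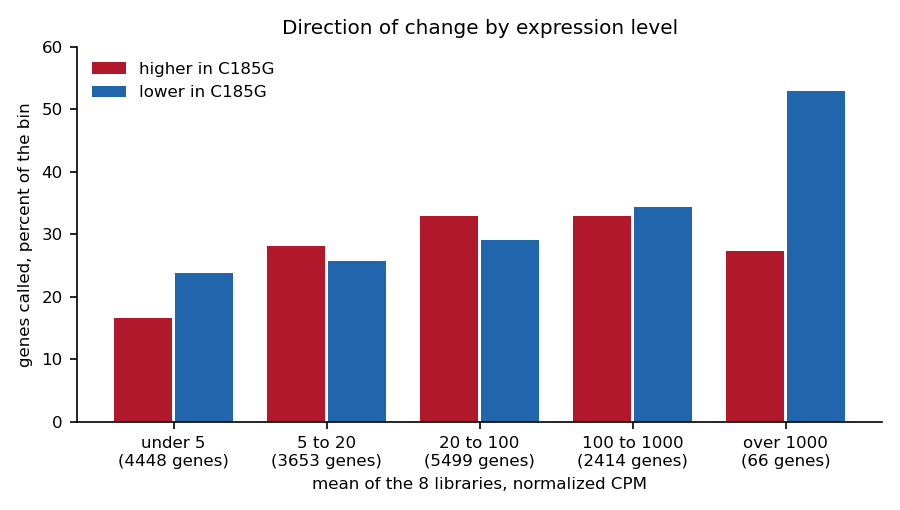
Share of genes called higher (red) or lower (blue) in C185G than in WT, in percent of the genes of each bin of mean level over the 8 libraries. Bars for genes over 1000 normalized CPM reach 53.0% lower against 27.3% higher, while the bins from 5 to 1000 lie between 25.7% and 34.3%.

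Genes that gained and lost the most were of different kinds. Among the largest fold rises at a mean of at least 5 normalized CPM were several at low levels in WT. Ptprn, a receptor-type phosphatase of dense-core secretory vesicles, was 13.2, 11.5, 12 and 15.3 normalized CPM in WT and 186, 219, 167 and 122 in C185G (log2 fold change 3.71, standard error 0.17, adjusted p = 5.0e-09). Its level in C185Gneo, 10.1, 12.1, 12.1 and 15.4, overlapped that of WT, and no C185G library came near either. Ndnf, a secreted fibronectin type III protein, rose from 129, 87, 66 and 101 to 901, 1088, 1154 and 1186 (log2 fold change 3.53, standard error 0.19, adjusted p = 4.5e-08). Fbxo2, the substrate receptor of a ubiquitin ligase for glycoproteins, was 10.3, 10.4, 10.3 and 7.64 in WT and 89.1, 109.9, 109 and 95.5 in C185G (log2 fold change 3.39, standard error 0.12, adjusted p = 1.8e-10). For both genes every C185G library was far above every WT and C185Gneo library. The list also held Gckr, the regulator of glucokinase (4.38), Trim6, a ubiquitin ligase of the tripartite motif family (4.16), Vipr2, a receptor for vasoactive intestinal peptide (3.60), Saa3, an acute-phase serum amyloid (3.45), Tenm4, a teneurin (3.35), and Mllt11 (3.30), all as log2 fold changes. Rasl10b, a small GTPase, was 4.43, 15.6, 19.3 and 26.9 normalized CPM in C185G against 1.37 ± 0.18 (SD) in WT, with C185G 1 the lowest of the 4.

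Among the largest fold losses, Anpep, the surface aminopeptidase N, was 521, 556, 482 and 435 normalized CPM in WT and 59.3, 43.2, 40.2 and 34.1 in C185G (log2 fold change -3.52, standard error 0.14, adjusted p = 1.7e-09). It was 620.5, 565, 554 and 606 in C185Gneo, so the low level was seen in the C185G libraries alone among the 12. Bex2 was 94.3, 116, 114 and 91.2 in WT and 17.9, 8.15, 8.18 and 8.93 in C185G (log2 fold change -3.34), with C185G 1 above the other C185G libraries and below every WT library. Nrn1, the neuritin gene, fell to 5.06 ± 2.79 (SD; log2 fold change -3.66), and its level in C185Gneo, 113 ± 12.1, was above that of WT, 58.6 ± 4.6. Others of the 20 largest falls were Bpifb5, of the lipid-binding BPI fold family (-3.38), Camk4, a calcium/calmodulin kinase (-3.34), Tinag (-3.13), the diacylglycerol kinase Dgkg (-3.04), the dicarboxylate transporter Slc13a3 (-3.04), the gap junction protein Gjb1 (-2.98), Rerg (-2.91) and the complement C5a receptor C5ar2 (-2.95). Ly6i differed from all of these. It was 71, 22.2, 59 and 33.5 normalized CPM in WT and 3.55, 4.56, 6.1 and 7.64 in C185G (log2 fold change -3.00, adjusted p = 2.8e-05), but 5.26, 5.45, 5.47 and 3.37 in C185Gneo. C185G and C185Gneo overlapped for Ly6i (adjusted p = 0.775).

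**Figure D2:**
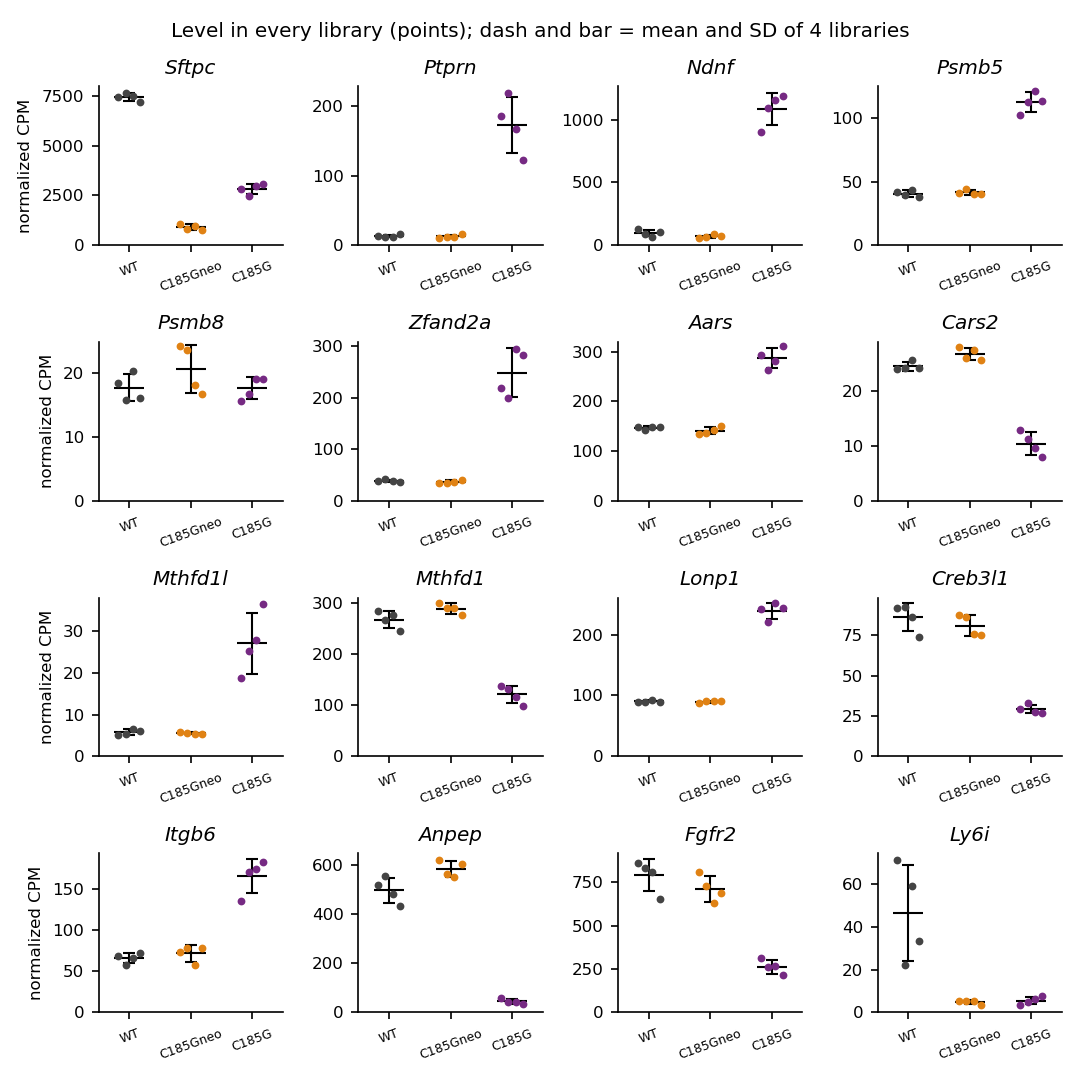
Normalized CPM of 16 genes in each of the 12 libraries (points) by genotype, with the mean and SD of 4 libraries as dash and bars; axes start at 0. C185Gneo lies with WT for most of them, below both other groups for Sftpc, and with C185G for Ly6i.

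The largest gains in normalized CPM, a ranking that depends on transcript length, were led by Gclc, the catalytic subunit of glutamate-cysteine ligase, which makes glutathione. It was 1601, 1516, 1471 and 1681 in WT and 2671, 2946, 3851 and 3276 in C185G (log2 fold change 1.01, adjusted p = 2.8e-05). Chaperone genes for cytosolic proteins followed, Hsp90ab1 (from 1264 ± 60.2 to 2183 ± 221 normalized CPM, log2 fold change 0.78) and Hspa8 (from 787 ± 12.4 to 1592 ± 216 normalized CPM, log2 fold change 1.01), with SDs over 4 libraries. Srxn1, which repairs oxidized peroxiredoxins, was also among them, as was the complement component C3 (from 2047 ± 58 to 2943 ± 307 normalized CPM, log2 fold change 0.52). The largest losses were led by Sftpc and held surfactant and lipid synthesis genes, among them Scd1 (from 7579 ± 1192 to 3294 ± 577 normalized CPM, log2 fold change -1.20, adjusted p = 2.0e-05, and 0.19 after quantile normalization) and Slc34a2, the phosphate transporter of AEC2 (from 5213 ± 635 to 1569.9 ± 288 normalized CPM, log2 fold change -1.74).

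All 31 subunits of the constitutive proteasome measured were higher in C185G, against 27.3% of all genes, with a median log2 fold change of 1.36 and a range from 0.93 to 1.76. All 31 were also higher than in C185Gneo (29.2% of all genes; median 1.37). Psmb4, a structural subunit of the core, was 109, 109, 113 and 109 normalized CPM in WT and 283, 305, 342 and 341 in C185G (log2 fold change 1.52, standard error 0.06, adjusted p = 5.6e-10). Psmc2, an ATPase of the cap, was 69, 66.2, 68.5 and 73.4 and 188, 188, 216 and 219.7 (log2 fold change 1.55, standard error 0.06, adjusted p = 8.6e-10). In both the lowest C185G library was more than 2-fold above the highest WT library.

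The immunoproteasome exchanges the 3 catalytic subunits for inducible counterparts and feeds antigen presentation by class I molecules. Of 15 measured genes of the immunoproteasome and class I loading, 4 were higher and 2 lower (median 0.04), beside 27.3% and 27.8% of all genes. Without WT 4 the number lower was 4. The catalytic pairs, singled out after their values were seen, differed member by member. Psmb5 was 41.8, 39.3, 43.5 and 37.7 in WT and 102, 113, 121 and 114 in C185G (log2 fold change 1.47, adjusted p = 1.5e-09), while its inducible counterpart Psmb8 was 18.5, 15.9, 20.5 and 16.1 and 15.7, 16.8, 19.1 and 19.2 (log2 fold change -0.00, adjusted p = 0.985). Psmb6 rose by 1.05, and its counterpart Psmb9 had a log2 fold change of -0.18 (adjusted p = 0.172, and 0.0356 without WT 4). Psmb7 rose by 1.39, and its counterpart Psmb10 fell, with a log2 fold change of -0.65 (adjusted p = 7.6e-05). So each constitutive catalytic gene rose, and of the inducible ones Psmb10 fell and Psmb8 and Psmb9 did not pass the test. Tapbp, the class I loading factor tapasin (0.43), and Psme2, a subunit of the PA28 activator (0.30), rose, and the class Ib gene H2-T23 fell (-0.31).

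Of 27 proteasome assembly factors and partners, 19 were higher and 1 was lower (2 without C185G 1; median 0.35; against C185Gneo 20 higher and 1 lower). Zfand2a, which associates with the proteasome under arsenite and heat stress, was 37.8, 41.9, 38.6 and 36 normalized CPM in WT, 35, 34.3, 36.5 and 40.9 in C185Gneo and 219, 199, 294 and 282 in C185G (log2 fold change 2.67, standard error 0.11, adjusted p = 1.6e-09). Usp14, the deubiquitinase bound to the cap (1.41), and Pomp, the maturation protein of the core (0.99), rose less, and Ddi2, a protease known to cut and activate NFE2L1, fell (-0.40). Nfe2l1 encodes that factor, known to drive proteasome genes when the proteasome is impaired, and was named after its values were seen. It was 355, 344, 343 and 327 in WT and 364, 340.3, 343 and 344 in C185G (log2 fold change 0.02, adjusted p = 0.685), with overlapping groups. Its RNA level does not show how much of the protein was cut and active. Ngly1 and Nfe2l2, also of this list, were called higher against WT and against C185Gneo.

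Ubiquitin genes and their enzymes were mixed, with 24 of 41 higher and 6 lower (median 0.25). Ube2o (1.15), a combined conjugating enzyme and ligase, Cdc34 (0.99) and the ER-anchored Ube2j2 (0.62) rose. Of 46 deubiquitinases, 18 were higher and 9 lower (median 0.12), beside 27.3% and 27.8% of all genes. Cops5, the catalytic subunit of the COP9 signalosome, rose (1.45), and Usp48 fell (-0.55). The CCT ring, which folds actin and tubulin, and the co-chaperones had 20 of 35 members higher and 4 lower. Cct3 was 114, 112, 114 and 123 in WT and 222, 249, 245 and 256 in C185G (log2 fold change 1.07, adjusted p = 1.2e-08). The co-chaperones of HSP90 moved apart: Fkbp5 was 35.8, 93.7, 88 and 116 in C185G against 12.4, 10.7, 16.6 and 15.4 in WT (log2 fold change 2.49), and Fkbp4 was 254, 171, 151 and 129 against 307, 317, 326 and 330.5 (log2 fold change -0.91). In both genes C185G 1 was the C185G library nearest to WT.

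**Figure D3:**
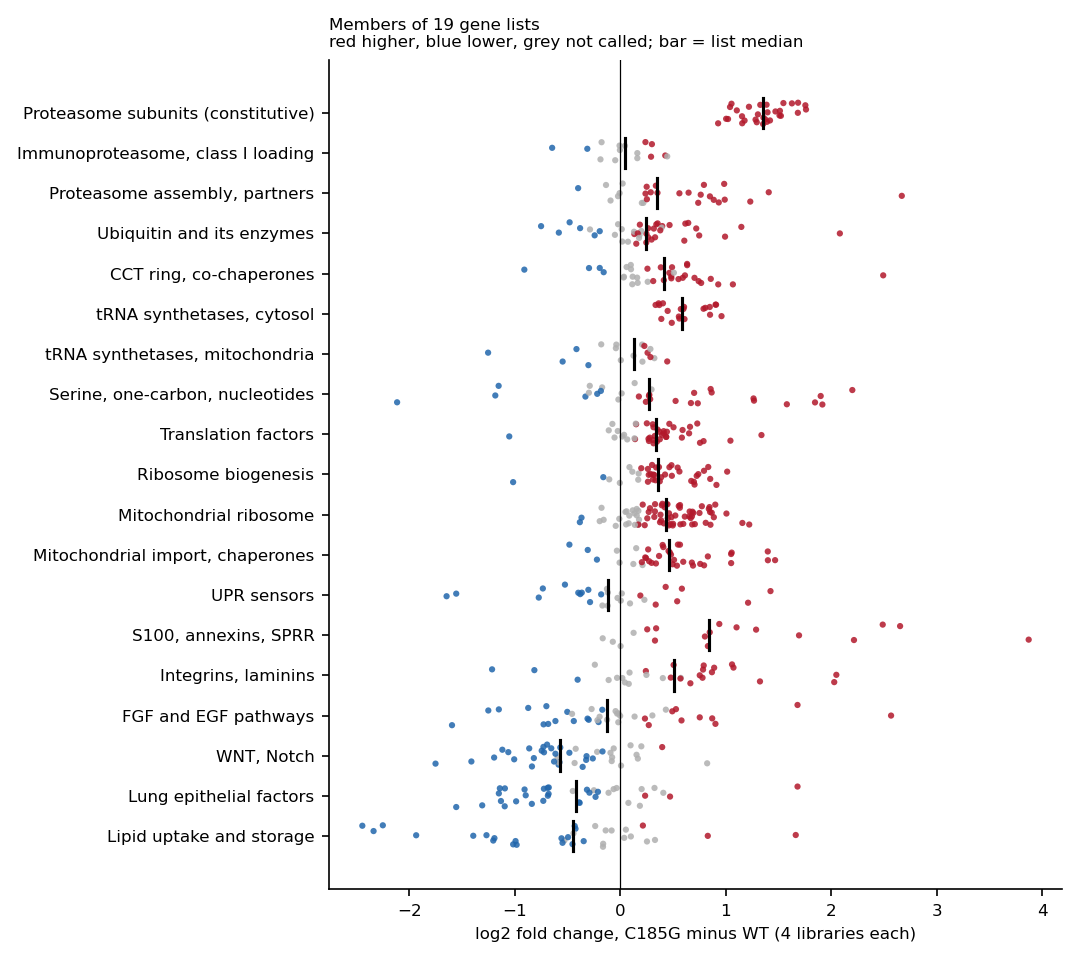
Log2 fold change of each measured member of 19 gene lists, C185G minus WT (points; red called higher, blue called lower, grey not called), with the list median as a black bar. Constitutive proteasome subunits and cytosolic tRNA synthetases lie wholly to the right of 0, and their immunoproteasome and mitochondrial counterparts lie on both sides.

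Aminoacyl-tRNA synthetases load amino acids onto tRNAs, with separate sets of enzymes for the cytosol and for mitochondria. All 20 cytosolic synthetase genes were higher in C185G, with log2 fold changes from 0.33 to 0.96 (median 0.59), and no gene's groups overlapped. All 20 were also higher than in C185Gneo (median 0.64). Aars was 148, 143, 149 and 149 normalized CPM in WT, 135, 137, 142 and 150.1 in C185Gneo and 293, 262, 280.3 and 311 in C185G (log2 fold change 0.96, standard error 0.06, adjusted p = 1.4e-08). Nars was 168, 161, 149.8 and 157, 157, 151, 146 and 157 and 302, 266, 282 and 296 (log2 fold change 0.85, adjusted p = 2.8e-08). Of the 17 mitochondrial synthetase genes, 4 were higher and 4 lower (median 0.13), beside 27.3% and 27.8% of all genes. Without C185G 3 the number higher was 2. Cars2 fell from 23.9, 24.2, 25.7 and 24.2 to 12.9, 11.3, 9.54 and 8.01 (log2 fold change -1.25, adjusted p = 9.1e-07), and Wars2 fell (-0.55), while Iars2 (0.45) and Rars2 (0.29) rose.

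Cytosolic synthetase and amino acid transporter genes are known targets of ATF4, a transcription factor translated when eIF2α is phosphorylated, which binds a composite element with the letters TGATGNAA. That motif was searched on both strands from 250 bases before to 50 after the RefSeq start of each gene (GRCm38.p6), for the 11463 measured genes that matched a promoter by symbol. It was in 260 of all 11463 promoters (2.27%), in 5 of 12 cytosolic synthetase promoters, in none of 14 mitochondrial ones and in 3 of 18 amino acid transporter promoters. With the window ended at the start, 3 of 12 and 229 of 11463 held it. Among genes called higher 2.42% held it (80 of 3313), close to the 2.27% of all. A match is a description of letters, not a bound site. The stretches below are shown because these genes rose and hold the motif, which is in capitals on either strand; Aars is at chr8:111033705-111033764 on the plus strand, Gars at chr6:55037941-55038000 on the plus strand, Tars at chr15:11399659-11399718 on the minus strand and Slc7a11 at chr3:50443645-50443704 on the minus strand, each read 5′ to 3′ on the gene's strand.
Aars: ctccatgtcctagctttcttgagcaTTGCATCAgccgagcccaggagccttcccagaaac
Gars: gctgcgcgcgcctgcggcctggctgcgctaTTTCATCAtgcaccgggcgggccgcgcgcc
Tars: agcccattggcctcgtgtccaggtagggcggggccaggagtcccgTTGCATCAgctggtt
Slc7a11: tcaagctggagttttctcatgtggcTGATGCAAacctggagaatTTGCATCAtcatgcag
The motif lies 112, 30 and 15 bases before the start of Aars, Gars and Tars, and Slc7a11 holds 2 copies. Gars rose by 0.81 and Tars by 0.49 on the log2 scale. Other motifs were searched in the same way, in these and other lists, and some also exceeded their share of all promoters. The E-box CACGTG was in 4 of 12 cytosolic synthetase promoters (9.76% of all). An antioxidant response element core (TGACNNNGC or TGAGNNNGC) was in 31.4% of all promoters. It was in 14 of 22 proteasome assembly promoters and 11 of 25 proteasome subunit promoters. Glutathione genes held it in 11 of 33 promoters and ribosome biogenesis genes in 6 of 33.

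Amino acid transporters divided. Of 24 measured, 9 were higher and 4 lower (median 0.23), beside 27.3% and 27.8% of all genes. Slc7a11, the cystine importer that supplies glutathione synthesis, was 83.2, 96.6, 119 and 80.4 normalized CPM in WT and 294, 292, 345 and 296 in C185G (log2 fold change 1.71, standard error 0.21, adjusted p = 4.2e-05). The cationic amino acid carrier Slc7a3 rose from 3.94 ± 0.429 to 15.9 ± 1.32 (SD), and the neutral amino acid carriers Slc1a5 (-0.44) and Slc38a2 (-0.47) fell. The genes of serine, one-carbon and nucleotide synthesis held 18 of 31 higher and 6 lower. For 2 pairs of mitochondrial and cytosolic folate enzymes the members went opposite ways. Mitochondrial Mthfd1l was 5.03, 5.32, 6.63 and 5.98 in WT and 18.7, 25.2, 27.9 and 36.5 in C185G (log2 fold change 2.20, adjusted p = 1.1e-07), and cytosolic Mthfd1 was 283, 266, 275 and 244 and 138, 131, 116 and 98.9 (log2 fold change -1.15, adjusted p = 1.4e-07). Mitochondrial Aldh1l2 rose (1.90) and cytosolic Aldh1l1 fell (-1.18). For none of the 4 genes did C185G overlap WT. Of another such pair, mitochondrial Shmt2 rose (0.86) and cytosolic Shmt1 did not pass the test (0.14, adjusted p = 0.136). Phgdh, the first enzyme of serine synthesis, rose (1.92), and Prps2, which makes the ribose donor of nucleotides, fell (-2.12).

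Most measured genes of the translation apparatus were higher, by smaller amounts. Of 42 translation factors, 32 were higher and 1 lower (median 0.34), of 38 ribosome biogenesis genes 30 and 2 (median 0.35), and of 76 cytosolic ribosomal proteins 49 and 2 (median 0.22). Eif6, which keeps large subunits from joining early, rose from 82 ± 6.36 to 169.5 ± 18.8 normalized CPM (SD; log2 fold change 1.04), and Eif4ebp1, the cap-binding inhibitor, by 1.34. The genes that fell included the helicase Eif4a2, 502, 501, 469 and 431 in WT and 311, 219.9, 221 and 182 in C185G (log2 fold change -1.05, adjusted p = 1.2e-05), and Heatr1, a nucleolar factor of small subunit assembly, 123, 124, 134 and 107 and 63.9, 56.4, 62.4 and 58.2 (log2 fold change -1.02, adjusted p = 9.9e-08). The others were Emg1, a methyltransferase of small subunit assembly (-0.16), and the ribosomal protein genes Rpl10 (-0.34) and Rpl21 (-0.16). Emg1 was not called without C185G 3 (adjusted p = 0.0503), nor Rpl21 without any one of the 4 WT libraries, C185G 1 and C185G 2 (adjusted p = 0.0595 to 0.160). Ribosomal protein genes have many processed pseudogenes that can take or give reads, and 135 of 671 processed pseudogenes were called higher and 64 lower.

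Most measured genes for mitochondrial ribosomes and protein import were also higher. Of 74 mitochondrial ribosomal proteins 54 were higher and 2 lower (median 0.43; 0 to 4 lower on leaving out 1 library), and of 38 import, chaperone and protease genes 30 were higher and 3 lower (median 0.46). Lonp1, the matrix protease, was 90.0, 89.2, 92.9 and 90.0 normalized CPM in WT, 87.5, 91, 90.8 and 90.3 in C185Gneo and 242, 219.7, 251 and 243 in C185G (log2 fold change 1.40, standard error 0.05, adjusted p = 1.8e-10). Hspa9, the matrix Hsp70 that pulls proteins inward, rose by 1.06, and Hspd1, the matrix chaperonin, from 118 ± 4.31 to 312 ± 31.1 (SD). Of 26 genes of the citric acid cycle 16 were higher and 2 lower, with smaller changes, such as 0.67 for Mdh2 and -0.36 for Idh2. Fatty acid oxidation genes went both ways, 17 of 46 higher and 12 lower, beside 27.3% and 27.8% of all genes. Cpt2, of the carnitine shuttle, rose by 1.36, and Cat, the peroxisomal catalase gene, fell from 863 ± 58 to 399 ± 71.8 (SD).

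The genes that sense and transmit ER stress moved both ways. Of 27 measured, 7 were higher and 11 lower (median -0.12), beside 27.3% and 27.8% of all genes. The sensor genes were near their WT level: Ern1 was 139, 132, 115 and 112 normalized CPM in WT and 148, 107, 106 and 100.1 in C185G (log2 fold change -0.12, adjusted p = 0.383). Eif2ak3 was 69.4, 64.1, 71 and 58.2 and 61.1, 64.6, 66.1 and 65.7 (log2 fold change -0.03, adjusted p = 0.801), and Atf6 was 168, 155, 139 and 152 and 170.0, 177, 179 and 173 (log2 fold change 0.19, adjusted p = 0.00918). For Ern1 and Eif2ak3 the groups overlapped. Without C185G 1, which was the highest C185G library for Ern1 and Traf2, both were called lower (adjusted p = 0.0142 and 0.00568). Creb3l1, an ER-bound transcription factor related to ATF6, fell most of those at 5 normalized CPM or more, from 91.9, 92.3, 86.4 and 73.7 to 29.3, 33, 27.6 and 27.1 (log2 fold change -1.55, standard error 0.09, adjusted p = 9.3e-09), and Creb3l2 fell as well (-0.77). Wfs1, the wolframin gene, rose from 43.9, 47, 45.3 and 42.6 to 84.6, 98.9, 106 and 129 (log2 fold change 1.21, adjusted p = 4.7e-07), and Trib3, an inhibitor of AKT induced by ATF4, from 26.1 ± 3.07 to 71.1 ± 17.5 (SD; log2 fold change 1.42). Eif2s1, which encodes eIF2α, rose by 0.58, and Creb3 by 0.54. Eif2ak2 rose by 0.34 (adjusted p = 0.0305), a call lost on leaving out any one of C185G 2, 3 and 4 or WT 4, with adjusted p from 0.0747 to 0.0916. Mbtps2, a protease that releases ATF6, rose (0.43). The falls also included Atf4 (-0.40), Ppp1r15a (-0.38), the stress kinases Eif2ak4 (-0.52) and Map3k5 (-0.29), Mbtps1 (-0.36), Xbp1 (-0.30), Dnajc3 (-0.18), Creb3l4 (-0.73) and Ern2, which was under 1 normalized CPM in both groups. Atf6b (0.09), Chac1 (0.01), Ddit3 (0.23), Eif2ak1 (0.00), Ppp1r15b (-0.13), Tmbim6 (-0.12) and Traf2 (-0.17) did not pass the test. Calls appeared on leaving out 1 library for Ddit3 (without C185G 2, adjusted p = 0.00603), Ppp1r15b (without WT 3, 0.0189, or C185G 2, 0.0288) and Tmbim6 (without C185G 4, 0.0453). Total counts for Xbp1 do not separate its spliced form. Coat proteins of ER and Golgi vesicles went both ways, 13 of 39 higher and 11 lower, beside 27.3% and 27.8% of all genes. N-glycosylation genes did too, 11 of 36 higher and 9 lower. With library totals as the scaling, 7 and 5 were lower. The cargo receptor gene Surf4 rose (0.69), and Magt1, a subunit of oligosaccharyltransferase, fell (-0.72).

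The transcription factors of lung epithelial cells were mostly lower, 23 of 36 against 3 higher (median -0.42), and 23 were lower than in C185Gneo as well (28.7% of all genes). Creb3l1 belongs to this list too. Id2, an inhibitor of basic helix-loop-helix factors found in distal lung epithelium, was 119, 125, 127 and 109 in WT, 136, 131, 93.8 and 99.1 in C185Gneo and 51.9, 45.9, 49.4 and 46.6 in C185G (log2 fold change -1.31, standard error 0.11, adjusted p = 5.1e-07). Elf5 (-1.14) and Nfia (-0.91) fell as well. Of the factors best known for AEC2, named after their values were seen, Nkx2-1 was 363, 378, 416 and 361 in WT and 267, 303, 343 and 310.0 in C185G (log2 fold change -0.32, adjusted p = 0.00539), Cebpa fell (-1.10) and Foxa2 did not pass the test (0.19, adjusted p = 0.0929). The ETS factors Etv5 and Etv4 moved apart: Etv5 fell from 749 ± 130.4 to 335 ± 34 (SD), and Etv4 rose from 1.26 ± 0.276 to 4.15 ± 1.08, a low level. Elf3, Elf5 and Ehf, also ETS factors of this list, were called lower. Pparg (0.47) and Klf5 (0.24) rose.

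Of 37 measured genes of the FGF and EGF receptor families, their ligands and feedback genes, 14 were lower and 10 higher. Of all genes, 27.8% were lower and 27.3% higher. Fgfr2, the FGF receptor of these cells, was 863, 836, 812 and 657 normalized CPM in WT, 808, 731, 628 and 688 in C185Gneo and 313, 260.4, 264 and 214 in C185G (log2 fold change -1.59, standard error 0.12, adjusted p = 1.8e-07). Feedback inhibitors of the pathway went both ways: Spry1 (-1.25) and Spred2 (-0.73) fell, and Spred1 (0.23) and Dusp4 (0.58) rose. Spry2 and Dusp6 were called lower as well, and Spred1 was not called against C185Gneo. Of the FGF ligands, Fgf1 fell (-0.68) and Fgf9 was called lower, while Fgf2 and Fgf7 were called higher. The EGF receptor ligands Ereg, 16.8, 31.2, 30.3 and 39.9 in C185G against 3.89, 5.09, 6.24 and 4.07 in WT (log2 fold change 2.57), and Areg (0.49) rose. Of 41 WNT and Notch genes, 25 were lower and 1 higher (median -0.57; against C185Gneo 24 lower and 3 higher). The WNT receptors Fzd5 (-0.86), Fzd8 (-1.41) and Lrp5 (-1.12) fell, as did Rnf43, a ligase that removes such receptors and is a WNT target (-1.20). Axin2, another WNT target, named after its values were seen, was 23.2, 28.7, 29.5 and 18 in WT and 7.67, 6.15, 8.23 and 7.02 in C185G (log2 fold change -1.75, adjusted p = 4.0e-06). The member that rose was Fzd6 (0.40), and without C185G 3 there were 2.

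Lipid uptake and storage genes were lower in 18 of 33 cases and higher in 3 (median -0.44). Apoe, the lipoprotein component, was 445, 447, 384 and 329 in WT, 488, 502, 493 and 473 in C185Gneo and 90.6, 77.2, 77 and 71.3 in C185G (log2 fold change -2.34, standard error 0.09, adjusted p = 8.6e-10). Fabp5, a fatty acid carrier (-2.25), and Mgll, which splits monoglycerides (-1.93), fell. The genes that rose were Soat2, which esterifies cholesterol (1.66), Plin2, a lipid droplet coat protein (0.83), and Nr1h2 (0.21).

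Many genes of the cell surface and matrix contacts were higher, but keratins went both ways. Of 18 measured S100, annexin and small proline-rich genes, 14 were higher and none lower (median 0.84). The 14 include S100a8 and S100a9, which are also neutrophil markers. S100a14 was 12.1, 13.7, 11.3 and 8.38 in WT and 70.2, 83.7, 58.9 and 71.8 in C185G (log2 fold change 2.65, standard error 0.16, adjusted p = 3.4e-08), S100a6 rose by 1.69 and Anxa3 by 1.10. Of 29 integrins and laminins, 16 were higher and 3 lower (median 0.51). Itgb6 was 68.9, 57.3, 66.1 and 71.6 in WT, 73.1, 78, 57 and 78 in C185Gneo and 135, 170.5, 175 and 183 in C185G (log2 fold change 1.32, standard error 0.12, adjusted p = 8.4e-07). It encodes the chain that pairs with that of Itgav, which rose by 1.07, into a receptor that activates TGF-beta. Itga1 (-1.22) and Itgb3 (-0.81) fell. Itgb3 was 11, 14.1, 10.5 and 10.4 in C185G and 7.31, 14.1, 14.2 and 17 in C185Gneo, which overlapped (adjusted p = 0.604). Krt17 rose from 0.229, 0.283, 0.223 and 0.0616 to 2.94, 5.31, 4.74 and 4.87 normalized CPM, Krt7 rose (0.73) and Krt19 rose (0.32), while Krt23 fell (-1.13), with 4 of 14 measured keratins higher and 7 lower.

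Junction genes were lower in 15 of 33 cases and higher in 5. Ctnnb1, which encodes β-catenin of adherens junctions, was 1808, 1785, 1555 and 1492 in WT and 992, 908, 933 and 838 in C185G (log2 fold change -0.85, adjusted p = 4.0e-07), and Nectin1 fell (-1.53). Cldn4 (0.46), a tight junction claudin of alveolar epithelium, and the desmosomal Pkp3 (1.18) rose. Of 25 markers of type 1 cells, 8 were higher and 4 lower, beside 27.3% and 27.8% of all genes. Ager, among the best known of them, fell (-0.32), as did Vegfa (-0.67), and Cryab, a small heat shock protein gene that type 1 cells express, rose (1.60). Pdpn, Emp2, Clic5, Gprc5a, Lmo7, Ahnak and Krt7 were also called higher, and Timp3 and Limch1 lower. All 25 summed to 8164 to 9878 normalized CPM in WT and 8651 to 11500 in C185G. The median of these markers relative to WT was -0.32 in C185G 1 and 0.31 to 0.34 in the other 3 libraries.

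Regulators of cell death went both ways, 10 of 31 higher and 10 lower, near the 27.3% and 27.8% of all genes. Bax, an effector of mitochondrial permeabilization, was 30.7, 29, 28.8 and 31.9 in WT and 65.2, 67.8, 67.7 and 61.1 in C185G (log2 fold change 1.12, adjusted p = 9.0e-09), and Bak1, the other effector, rose by 1.07. The BH3-only sensors Bmf and Bcl2l11, which act above them, fell: Bmf was 69.4, 57.2, 65.9 and 47.7 and 11.3, 12.1, 12.3 and 10.8 (log2 fold change -2.36, adjusted p = 6.3e-09), and Bcl2l11 fell (-1.58). For none of these 4 genes did C185G overlap WT, and C185Gneo, at 65.2, 58.2, 48.2 and 47.7 for Bmf, lay with WT. The other BH3-only genes of the list did not fall: Bid was called higher, and Bad, Bik, Hrk, Bbc3 and Pmaip1 were not called.

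Immune genes gave no common direction, and their counts stand beside 27.3% of all genes higher and 27.8% lower. Of 35 interferon-response genes 6 were higher and 9 lower. Rsad2 was 8.29, 7.47, 10.4 and 6.1 in WT and 19.1, 43.1, 85.6 and 68.4 in C185G (log2 fold change 2.56, adjusted p = 0.000243) and Isg15 rose (1.36), while the transcription factors Stat2 (-0.79) and Irf1 (-0.83) fell. Of 38 cytokine and acute-phase genes, 14 were higher and 7 lower. Il23a, a subunit of interleukin 23, rose from 0.535 ± 0.129 to 5.43 ± 1.12 normalized CPM (SD), and Csf2, which encodes the growth factor GM-CSF that alveolar macrophages need, fell from 5.8 ± 1.96 to 1.86 ± 0.452. Of 33 complement and coagulation genes, 11 were higher and 8 lower, and 7 were higher without WT 2 or without WT 4. Procr, the protein C receptor, was 11.2, 10.1, 11.9 and 9.55 and 68.3, 72.7, 75.9 and 68.4 (log2 fold change 2.74), and F7, coagulation factor VII, fell (-2.77).

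Clock genes, glucocorticoid targets and hypoxia genes went both ways. Their counts stand beside 27.3% of all genes higher and 27.8% lower. Nr1d1, a repressor of the circadian loop, was 618, 713, 718 and 668 in WT and 224, 269, 219 and 187 in C185G (log2 fold change -1.60, adjusted p = 2.6e-08). Of 21 clock genes 9 were lower and 3 higher (5 without C185G 1), and no source used here gives the hour of isolation. Of 16 glucocorticoid targets, 8 were lower and 4 higher, with Klf9 at -0.75 against Fkbp5 at 2.49. Of 25 hypoxia genes, 10 were lower and 6 higher. Ndrg1, a stress-responsive gene, rose (1.93) and Egln1 fell (-0.74). Pgk1 was 74.5, 73.4, 77.5 and 79 in WT and 147, 138, 133 and 152 in C185G (log2 fold change 0.90), but 421, 299, 350.0 and 293 in C185Gneo, above both.

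Markers of other cells that the isolation could carry over moved in part with genotype. The counts of markers called against WT stand beside 27.3% of all genes higher and 27.8% lower. The summed level of 14 endothelial markers was 321 to 406 normalized CPM in WT and 281 to 309 in C185G, with 9 members lower and none higher (1 higher without any one of WT 1, C185G 1 and C185G 2). The 18 mesenchymal markers summed to 1364 to 1826 and 1765 to 2314, with 3 higher and 2 lower. Of the 18, 1 was higher without any one of WT 1, WT 4, C185G 2 and C185G 4, none was lower without WT 2 or without C185G 3 and 1 was lower without C185G 1, 2 or 4, while 9 were higher with only the 8 libraries in the fit and 6 with the replicate block. The 8 measured mesothelial markers summed to 1130 to 1354 in WT and 1550 to 1788 in C185G, which did not overlap, with Krt19 alone called, higher. Without Krt19 their mean sum was 519.7 and 748, and 5 were higher with only the 8 libraries in the fit. The 9 measured neuroendocrine markers summed to 34.1 to 40.5 and 142 to 155 (3 higher, 3 lower, and 1 lower without any one of WT 2, WT 4 and C185G 3), led in C185G by Uchl1, a ubiquitin hydrolase gene, at 95.5, 112, 109 and 102 in C185G against 5.66, 5.83, 6.46 and 5.42 in WT (log2 fold change 4.15). The 3 measured basal markers summed to 23.6 to 26.1 and 16.3 to 24.7. The 16 club and goblet markers summed to 10170 to 13880 and 7679 to 8963 (none higher, 6 lower, and 3 lower without WT 3 or without C185G 3), and the 15 ciliated markers to 1774 to 2422 and 1209 to 1893 (1 higher, 8 lower). The 6 measured neutrophil markers summed to 22 to 43.3 and 31.8 to 111 (4 higher, 1 lower), led by S100a9 at 23.2, 18.3, 6.32 and 39.9 in C185G. The 8 measured macrophage markers summed to 159 to 200.4 and 196 to 211, and the 7 lymphocyte markers to 229.6 to 670.1 and 351 to 640.4. In C185Gneo the mesenchymal markers summed to 911 to 1446 and the mesothelial markers to 711.5 to 1419, both below C185G. Against C185Gneo, 12 of 18 mesenchymal markers were higher and none lower. Of 8 mesothelial markers 4 were higher, and of 14 endothelial markers 11 were lower. Of all genes, 29.2% were higher than in C185Gneo and 28.7% lower. No measured marker of these lists was at 0 in any library. Their part in the changes above was not tested.

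One C185G library stood apart. On the first principal component of the 8 libraries, which held 80.1% of the variance, the WT libraries lay between -35.6 and -31.9, C185G 1 at 21.5 and the other C185G libraries between 33.8 and 42.8. The spread between libraries was wider in C185G (median SD of log2 values 0.130) than in WT (0.102). C185G 1 had the lowest medians for proteasome subunits (1.18, against 1.32 to 1.49) and for integrins and laminins, and it lay within the range of the others for cytosolic tRNA synthetases. Without it, 4551 genes were called higher and 4726 lower.

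**Figure D4:**
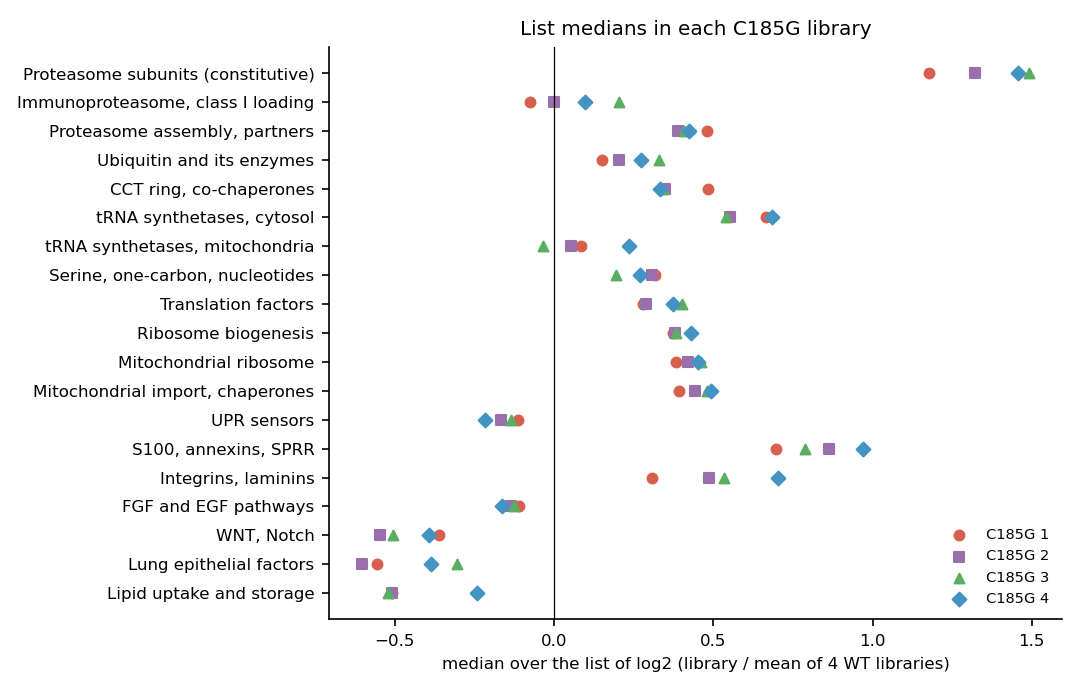
Median over each of 19 gene lists of the log2 ratio to the mean of the WT libraries, for each C185G library (marker shape and colour). The 4 libraries lie on the same side of 0 for every list shown except the immunoproteasome and mitochondrial synthetase lists, and C185G 1 has the lowest value for proteasome subunits.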

How the data were processed

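RNA was sequenced from AEC2 preparations, and STAR, limma and the mm10 build are named, per the submitters' processing notes. The authors deposited 1 table per library, with values that are log2 of a whole count plus 0.5 times a factor for that library. From the values, 100% of them gave whole counts within 1e-06. Genes were named from GENCODE M21 (GRCm38), which matched 16017 of 16080 identifiers. Normalized CPM divide each scaled count by the mean scaled total. Differences were fitted on the deposited log2 values of all 12 libraries in limma 3.58.1 (R 4.3.3), with 1 coefficient per genotype, a mean-variance trend, robust moderation and Benjamini-Hochberg adjustment over 16080 genes, and the fit was tested on simulated data.

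The members of the gene lists were chosen with earlier results of these data known. The text names Sftpc, the unfolded protein response sensors, the 20 largest fold changes each way (adjusted p under 0.05, mean of at least 5 normalized CPM, groups that do not overlap), the 12 largest gains and losses in normalized CPM, up to 4 called members per list with the smallest p and up to 3 against the list's direction, and the 8 genes of largest SD per group; predicted genes and pseudogenes were counted only, and not all genes the rule gives are printed, some of which are not reported here. Named outside it, after their values were seen, were Axin2, Cebpa, Dusp4, Etv5, Foxa2, Gars, Nfe2l1, Nkx2-1, Phgdh, Psmb5 to Psmb9, S100a6, S100a9, Shmt1, Shmt2, Spred1 and Tars. Further list members, such as Pdpn, Spry2, Bid and S100a8, were added by their call alone, after the calls were known. They are outside the counts of named genes below. Genes with near-identical copies, such as Hspa8, Gstt1, tubulins and ribosomal proteins, are uncertain, since how reads that fit several places were counted is not given in the sources used here. Alternatives were other scalings, filters, prior counts, weights, a replicate block and each library left out.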

Additional observations from a re-analysis of the deposited data

Results flagged for a closer look

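Among the genes named here, 23 of 400 sets of 4 libraries had 1 library whose gap to the nearest other was too large a share of the set's range by Dixon's criterion, 5.75%, and chance alone flags about 1 set in 20. Values are normalized CPM. C185G 1 was the library concerned in 5 of the 9 C185G cases. It was lowest for Ager (673.0, the others 739.0 to 745.5), Eif2ak2 (26.6, the others 38.6 to 41.3) and Spred1 (126.1, the others 139.6 to 141.4), and highest for Bex2 (17.9, the others 8.15 to 8.93) and Nfe2l1 (363.5, the others 340.3 to 343.8). For Eif2ak2 and Spred1 this put it inside the range of the WT libraries. C185G 3 was lowest for Itga1 (2.89) and highest for Klf5 (283.6) and Slc7a11 (345.5), and C185G 4 was highest for Gars (153.3, the others 127.6 to 130.7).

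Of the 14 cases in WT, WT 4 was lowest for Cebpa (494.7), Eif2ak2 (26.0), Fbxo2 (7.64), Scd1 (5824, the others 7965 to 8477) and Slc30a4 (29.9), and highest for Cct3 (122.5). WT 1 was lowest for Actn1 (380.4), Iars2 (82.5) and Ube2j2 (41.8). WT 3 was lowest for Map3k5 (114.0, the others 132.1 to 132.2) and Shmt1 (29.3, the others 35.7 to 37.1) and highest for Psmb4 (113.2) and Tapbp (249.7, the others 210.6 to 215.3), and WT 2 was highest for Wars2 (15.1). In each of these 14 sets the WT library concerned was outside the range of the 4 C185G libraries.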

How the results depend on the processing

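Over 17 alternatives, the genes called higher than in WT numbered 3647 to 5357 and those lower 3525 to 4726, all within 1.5 times 4388 and 4464. The lowest counts came with genes under a mean of 5 normalized CPM left out, and the widest split with library totals as the scaling. Leaving out 1 library gave 3950 to 4551 higher and 3982 to 4726 lower. Against C185Gneo no count moved by over 1.5 times. Of the 186 called genes named here, 180 were called in the same direction under every alternative. The exceptions were Eif2ak2 and S100a9 (calls lost without single libraries; S100a9 adjusted p = 0.0650 to 0.0806 without C185G 1, C185G 4, WT 3 or WT 4), Scd1 (quantile normalization), Dnajc3 and Emg1 (library totals, adjusted p = 0.0628 and 0.235; Emg1 also without C185G 3) and Rpl21 (library totals, quantile normalization, no mean-variance trend, only the 8 libraries in the fit, and 6 of the 8 single libraries left out). With library totals Foxa2 and Shmt1 were called higher (adjusted p = 0.0254 and 0.0235). Epithelial keratins called lower fell from 7 to 3 with genes under 5 normalized CPM left out, and with only the 8 libraries in the fit 18 complement and coagulation genes were higher. The cause was not tested. For the ATF4 motif in cytosolic synthetase promoters, ending the window at the start left 3 promoters in place of 5.

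Replicate numbers gave no sign of pairing between WT and C185G: same-numbered libraries had correlations of -0.30 to -0.06, and no WT library correlated best with its own number in C185G. Same-numbered C185Gneo and C185G libraries had -0.10 to 0.11, and WT and C185Gneo 0.035 to 0.25, all positive, with WT 1 closest of all to C185Gneo 1. No pair of groups had every correlation over 0.1. Low correlations cannot show that same-numbered libraries shared no handling. With the replicate block 4349 genes were higher and 4321 lower than in WT, and 4647 and 4465 against C185Gneo. At 15659512 to 20628865 counts per library in the 2 groups, a level of 1 normalized CPM is about 16 to 21 counts, which limits genes such as Krt17, Ern2 and Il23a in WT.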

Other observations

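Genes that make and use glutathione, the main thiol of the cell, were higher in 21 of 37 measured members and lower in 7 (median log2 fold change 0.45; against C185Gneo 21 higher and 9 lower). Without C185G 3, 4 were lower than in WT. Gsr, which regenerates reduced glutathione, was 98.7, 106, 106 and 116 normalized CPM in WT and 206, 247, 265 and 271 in C185G (log2 fold change 1.21), and the transferase Mgst3 was 23, 22.4, 22 and 23.5 and 57.6, 67.3, 63.3 and 64.6 (log2 fold change 1.47). The groups did not overlap for either. The transferase Gstt1 (-1.02) and the ER peroxidase Gpx8 (-0.78) fell. Of 22 measured metallothionein and zinc transporter genes, 8 were higher and 6 lower, beside 27.3% and 27.8% of all genes. The metallothionein genes Mt1, Mt2 and Mt3 were called higher against WT and against C185Gneo, while zinc transporters moved both ways. Slc30a4 rose from 32.5 ± 1.72 to 94.6 ± 14.5 (SD), while Slc30a7 fell from 72.3 ± 4.18 to 53.2 ± 2.26.

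Of 32 actin, tubulin and filament genes, 17 were higher and 5 lower (median 0.21). The counts for these and the next lists stand beside 27.3% of all genes higher and 27.8% lower. The actin cross-linker Actn1 (0.83) and the tropomyosin Tpm4 (0.61) rose, and Stmn1, which destabilizes microtubules, fell from 73.8 ± 12.2 to 36.7 ± 5.27 (SD). Among 23 measured cell cycle inhibitor and senescence-associated genes, 9 were higher and 4 lower. Trp53, which encodes p53, was 37.1, 35.2, 35.5 and 32.9 in WT and 60.9, 51.5, 49.2 and 47.4 in C185G (log2 fold change 0.56), its target Mdm2 rose (0.41) and the cyclin-dependent kinase inhibitor Cdkn1b fell (-0.69). Hippo pathway genes and YAP targets had 7 of 31 members higher and 10 lower, with Ptpn14 at 0.63 and Amotl2 at -0.79. Alveolar ion and fluid transport genes had 6 of 28 higher and 11 lower, with the chloride channel gene Ano1 at 0.92 and the potassium channel gene Kcnq1 at -0.85.

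The genes that varied most among libraries of 1 genotype were mostly immunoglobulin variable genes, in both groups. The 119 immunoglobulin genes summed to 774.0 to 2670.0 normalized CPM in WT, 463.5 to 882.2 in C185Gneo and 1372 to 2682 in C185G.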
